A study of Rattus norvegicus with 6 samples.

Results

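The 10 genes described here encode ADAMTS proteases (a disintegrin and metalloproteinase with thrombospondin motifs), and they were taken by gene name from the 18923 genes listed for each sample. Adamts1, Adamts4, Adamts5, Adamts8, Adamts9, Adamts15 and Adamts20 are the 7 hyalectanases, which cut aggrecan, versican and related proteoglycans. Adamts2, Adamts3 and Adamts14 are the 3 procollagen N-propeptidases. The cells were primary chondrocytes isolated with collagenase from wild-type female Sprague-Dawley rats 24 h after birth and used at passage 1 or 2. The CON group was grown for 24 h in high-glucose DMEM with 10% fetal bovine serum and 1% penicillin-streptomycin, and the RA group was grown for 24 h in the same medium with 1 µM all-trans retinoic acid. Each group had 3 samples of poly(A)-selected RNA, and the comparison of RA with CON asks how retinoic acid alters chondrocyte catabolism. The study describes the samples of a group as independent without saying whether they came from separate animals, so p-values measure the spread between these samples. The cultures were not sorted, and fewer cells of a type cannot be told apart from less RNA per cell.

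ADAMTS proteases are secreted zinc enzymes that are made as inactive precursors and cut free of their prodomain by furin-like convertases. In cartilage, Adamts4 and Adamts5 are the best known aggrecanases, which release the aggrecan that gives the tissue its resistance to compression. Timp3, a tissue inhibitor of metalloproteinases that binds to the matrix, blocks them, and the endocytic receptor Lrp1 takes several of them up from the medium. The N-propeptidases remove the amino-terminal propeptide from fibrillar procollagens so that the collagen can assemble into fibrils, with Adamts3 best known for type II procollagen and Adamts2 and Adamts14 for type I. Retinoic acid acts through nuclear receptors that bind pairs of a short DNA element.

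Total counts ran from 29370025 to 38007486 per sample, so 3 counts, taken as the detection floor, were worth 0.0789 to 0.102 CPM (counts scaled to a common library total). The first CON sample stood apart: its log CPM correlated at 0.982 to 0.984 with the other CON samples. The remaining pairs of one group correlated at 0.990 to 0.991. Pairs of a CON and an RA sample correlated at 0.973 to 0.983, a range that overlaps that of CON 1 with its own group. The treatment was visible in retinoid response genes. Of 7 tested, 5 were differentially expressed genes (DEGs, as defined below) higher in RA, against 2.67% of all tested genes. Cyp26a1, which degrades retinoic acid, had a log2 fold change of 3.35, Cyp26b1 of 2.65, Dhrs3 of 0.63 and the receptor gene Rarb of 1.43, although Rarb was near the threshold (adjusted p 0.0493 by edgeR) and was called in 1 of 6 leave-one-out fits, each of which omits 1 sample. Chondrocyte markers were abundant but fell: their summed level was 40116 to 48298 CPM in CON and 25007 to 26491 in RA. Of 8, 7 were DEGs lower in RA, against 2.29% of all tested genes. The summed level of 6 fibroblast markers was 19175 to 25920 CPM in CON and 25357 to 26720 in RA, with 1 of 6 a DEG, Postn, which fell, while Pdgfra (log2 fold change 0.44) was higher by adjusted p alone and Pdgfra and Thy1 had every RA sample above every CON sample. The 5 macrophage markers summed to 22.0 to 24.8 CPM in CON and 27.2 to 29.2 in RA, with Ptprc at 5 counts or fewer and Adgre1 at 1 or fewer. Most of that sum was Cd14, and the 3 markers tested (Cd14, Cd68 and Csf1r) had log2 fold changes of 0.23, 0.27 and 0.91, none past the test, with RA above CON in every sample for Cd14 and Cd68. Endothelial markers summed to 0.368 to 1.14 CPM in CON and 0.485 to 1.01 in RA, muscle markers to 10.1 to 12.8 and 14.9 to 16.7, and osteoblast markers to 19.1 to 20.9 and 18.0 to 18.5. Myod1 (log2 fold change 1.93), 1 of 2 tested muscle markers, and Ibsp (1.47), 1 of 3 tested osteoblast markers, were DEGs higher in RA, while the osteoblast marker Alpl (-0.42) was lower by adjusted p alone, with every RA sample below every CON sample. Groups that did not overlap were seen in 32.2% of all tested genes, 18.9% with RA above CON and 13.3% with RA below. Whether the shifts in marker genes contribute to the ADAMTS values was not tested.

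Among the 10 ADAMTS genes, Adamts8 rose 9.46-fold in RA and Adamts15 fell to 47.5% of its CON level, and no other member was a DEG. Folds and percentages of CON are ratios of group means of TMM-normalised CPM, whereas log2 fold changes are the estimates fitted by edgeR, so the 2 differ slightly. To be called a DEG, a gene needed a log2 fold change above 0.58 or below -0.58 and, in the quasi-likelihood test of edgeR, a p below 0.05 after Benjamini-Hochberg correction for 13438 genes. The 2 DEGs made up 20.0% of the members, against 4.96% of all tested genes, and 1 was higher and 1 lower (background 2.67% and 2.29%). By adjusted p alone, without the fold threshold, 5 of 10 members passed, 4 higher and 1 lower, against 9.82% of all genes (5.31% higher and 4.5% lower): Adamts1, Adamts9 and Adamts14 were also higher in RA, by 1.21- to 1.34-fold. The same 5 genes were those whose RA and CON samples did not overlap, 4 above and 1 below, a pattern that 32.2% of all tested genes had (18.9% above and 13.3% below). With unadjusted p in place of adjusted p, the fold threshold kept, the members called were again 2 of 10, against 7.57% of all genes (3.75% higher and 3.82% lower). The median log2 fold change was 0.069 over the members and -0.0057 over all tested genes. All 10 members entered the test, but Adamts8 did so through the RA samples alone, since no CON sample reached the filter's level of 0.329 CPM.

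**Figure D1:**
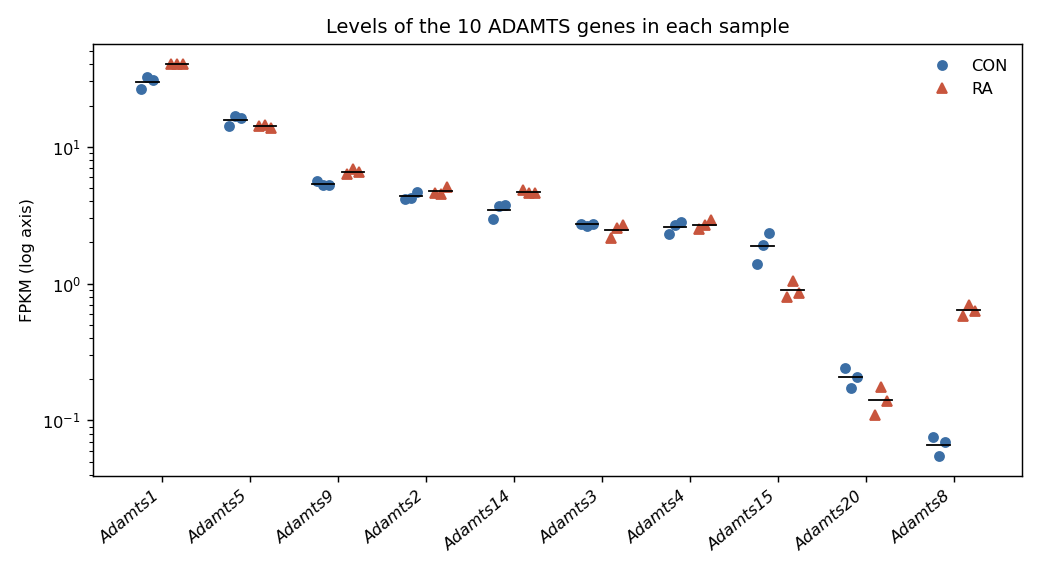
FPKM of the 10 ADAMTS genes in each sample on a log axis (circles, CON 1 to 3; triangles, RA 1 to 3; horizontal bar, group mean, n = 3). Adamts8 lies near 0.0666 FPKM in CON and near 0.636 in RA, whereas Adamts15 drops from 1.88 to 0.901.

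Levels of different genes were compared in FPKM, which scales fragment counts by gene length and library total. Adamts1 was the most abundant member (29.7 ± 3.04 FPKM in CON, 40.2 ± 0.265 in RA; errors are SDs over the 3 samples of a group throughout). It was followed in both groups by Adamts5, Adamts9 and Adamts2. In CON the order then ran Adamts14, Adamts3, Adamts4, Adamts15, Adamts20 and Adamts8, and the sample ranges of Adamts3 and Adamts4 and of Adamts4 and Adamts15 overlapped. In RA, Adamts14 and Adamts2 overlapped, as did Adamts4 and Adamts3, Adamts15 remained below both, and Adamts8 moved from the last place to the ninth, ahead of Adamts20.

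RefSeq promoter sequences of the GRCr8 build matched 7 of the 10 members, with Adamts5, Adamts8 and Adamts15 having no entry. The 250 bases before the gene start are shown for Adamts1, Adamts9 and Adamts14, the matched members that passed by adjusted p and were higher in RA. They run 5′ to 3′ on the gene's strand, and capitals mark a TATA motif (TATAAA, sense strand) or a retinoic acid receptor element (AGGTCA and its variants AGTTCA as well as GGGTCA as well as GGTTCA, on either strand).
Adamts1 (chr11:38427385-38427634, minus strand): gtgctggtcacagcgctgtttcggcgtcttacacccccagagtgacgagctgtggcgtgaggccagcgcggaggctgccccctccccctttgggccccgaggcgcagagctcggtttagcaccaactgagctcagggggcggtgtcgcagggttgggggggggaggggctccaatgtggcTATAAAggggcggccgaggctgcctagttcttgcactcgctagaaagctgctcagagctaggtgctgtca
Adamts9 (chr4:127019877-127020126, minus strand): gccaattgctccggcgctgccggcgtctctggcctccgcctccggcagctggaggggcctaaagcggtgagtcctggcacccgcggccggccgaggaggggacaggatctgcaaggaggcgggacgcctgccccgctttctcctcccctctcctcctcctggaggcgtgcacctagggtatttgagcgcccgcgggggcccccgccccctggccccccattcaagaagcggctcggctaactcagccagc
Adamts14 (chr20:29762683-29762932, minus strand): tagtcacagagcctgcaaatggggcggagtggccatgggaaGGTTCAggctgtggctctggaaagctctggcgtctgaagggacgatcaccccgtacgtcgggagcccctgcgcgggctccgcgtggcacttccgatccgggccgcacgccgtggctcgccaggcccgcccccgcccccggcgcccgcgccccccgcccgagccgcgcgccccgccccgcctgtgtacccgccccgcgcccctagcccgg
The Adamts1 window held TATAAA, 70 to 65 bases before the start, which no other matched member had and 8.06% of 33469 rat windows of this length did. It held no receptor element, and neither did that of Adamts9. Adamts14 had GGTTCA 209 to 204 bases before the start, and GGGTCA stood in the windows of Adamts2, Adamts3 and Adamts20, so that 4 of 7 members had an element, against 39.1% of all windows. Retinoic acid receptors are known to bind such elements as direct repeats. The 12 repeats searched had AGGTCA or AGTTCA in either place, spaced by 1, 2 or 5 bases, on either strand. Of all windows, 0.149% held one. None of the 7 member windows held AGGTCA or AGTTCA even once, so none could hold such a repeat. Repeats built from GGGTCA or GGTTCA were not searched. For comparison, Cyp26a1 carried a repeat of the form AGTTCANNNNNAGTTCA, found in 3 windows of all, on its antisense strand. It is shown as the sense strand reads, with the elements in capitals.
Cyp26a1 (chr1:244883730-244883746, plus strand): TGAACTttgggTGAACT
These matches describe the letters in these windows alone. The windows of the members had a GC content of 51.2 to 80.0%, against a median of 51.2% over all windows.

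Adamts8 (ENSRNOG00000005574), a hyalectanase that can cut aggrecan and is also known for an anti-angiogenic activity, changed the most. It had 7, 5 and 8 counts in the CON samples and 52, 62 and 59 counts in the RA samples. In FPKM these were 0.0754, 0.0548 and 0.0696 in CON and 0.579, 0.698 and 0.631 in RA. Every RA sample lay far above every CON sample, while the gene stayed under 1 FPKM in all 6. The log2 fold change was 3.21 (SE 0.28, 95% interval 2.57 to 3.85) with an adjusted p of 2.53e-04 by edgeR, and the call held in 6 of 6 leave-one-out fits. Because the CON level rested on 5 to 8 counts, its size depended on how low values were treated: it was 2.14 with limma on log2(FPKM + 0.1) and 0.62 on log2(FPKM + 1), both past the thresholds. With a requirement of 1 FPKM in 3 samples the gene was not tested.

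Adamts15 (ENSRNOG00000009892), another aggrecan-cutting member, moved in the opposite direction. The CON samples had 1.39, 1.91 and 2.33 FPKM, from 259, 350 and 536 counts. The RA samples had 0.7999, 1.05 and 0.852 FPKM, from 144, 187 and 160 counts. All RA samples were lower than the lowest CON sample, but the CON samples differed widely among themselves. The log2 fold change was -1.08 (SE 0.21, 95% interval -1.55 to -0.60), with an adjusted p of 0.0131 by edgeR. With limma on log2(FPKM + 0.1) it was -0.96 (adjusted p 0.0303). With limma on log2(FPKM + 1) it was -0.587 (adjusted p 0.0325), only just past the fold threshold. The call held in 3 of 6 leave-one-out fits, and the adjusted p rose above the threshold without CON 2 (0.0541), RA 1 (0.0684) and RA 3 (0.0674), with log2 fold changes of -1.07, -0.99 and -1.04.

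In the RefSeq annotation of the rat, Adamts15 and Adamts8 are neighbouring protein-coding genes, and Adamts1 and Adamts5 are another such pair. The first pair changed in opposite directions. Adamts15 FPKM divided by Adamts8 FPKM gave 18.4, 34.9 and 33.4 for CON 1 to 3 but 1.38, 1.50 and 1.35 for RA 1 to 3. The CON ratios rest on 7, 5 and 8 counts of Adamts8, so their size is uncertain. In the second pair, Adamts1 was higher in RA whereas Adamts5 did not pass the test. A direct test of the difference between neighbours was not made.

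**Figure D2:**
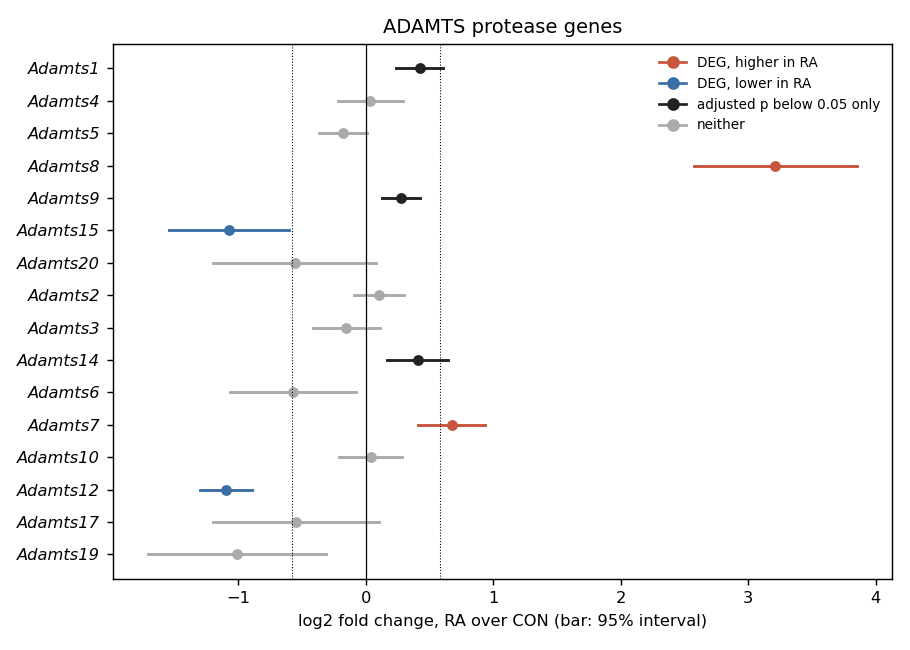
log2 fold changes of RA over CON for the 10 members and, beneath them, the 6 other ADAMTS genes that were tested (point, estimate; bar, 95% interval; dotted lines, log2 fold change of 0.58 in either direction). Adamts8 lies at 3.21, Adamts15 at -1.08 and Adamts12 at -1.10. The intervals of the members Adamts2, Adamts3, Adamts4, Adamts5 and Adamts20 include 0, as do those of Adamts10 and Adamts17.

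Adamts1 (ENSRNOG00000001607), a protease that cuts both aggrecan and versican, had 26.3, 32.1 and 30.7 FPKM in the CON samples and 40.04, 40.05 and 40.51 in the RA samples. The RA samples were nearly identical and lay above all CON samples. Its log2 fold change of 0.42 (SE 0.081, 95% interval 0.24 to 0.61) had an adjusted p of 0.0131 by edgeR but fell short of the fold threshold. The adjusted p stayed below 0.05 when any CON sample was left out and rose to 0.0563 to 0.0670 when any RA sample was. Adamts9 (ENSRNOG00000023257), a versican- and aggrecan-cutting member expressed in many tissues, had 5.59, 5.28 and 5.29 FPKM in CON and 6.30, 6.87 and 6.55 in RA. Its groups did not overlap either. The log2 fold change of Adamts9 was 0.28 (SE 0.066, 95% interval 0.12 to 0.43), with an adjusted p of 0.0341 by edgeR that remained below 0.05 in 1 of 6 fits with a sample left out, the one without CON 1. It was 0.0841 and 0.0873 with limma on log2(FPKM + 0.1) and log2(FPKM + 1).

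The major aggrecanases Adamts4 and Adamts5 were not DEGs. Adamts5 (ENSRNOG00000057794) had 14.1, 16.9 and 16.3 FPKM in the CON samples and 14.1, 14.5 and 13.6 in the RA samples, so that the groups overlapped only at CON 1. Its log2 fold change was -0.18 (95% interval -0.37 to 0.012) with an adjusted p of 0.237 by edgeR. Without CON 1 it was -0.26 and the adjusted p 0.00726, still short of the fold threshold. Adamts4 (ENSRNOG00000003538) had 2.32, 2.69 and 2.82 FPKM in CON and 2.504, 2.688 and 2.911 in RA. The samples of Adamts4 were interleaved, and the log2 fold change was 0.034 (95% interval -0.22 to 0.29) with an adjusted p of 0.886 by edgeR. Leaving out CON 1 or RA 3 turned its sign, to -0.047 and -0.025.

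Adamts20 (ENSRNOG00000033397), a versican-cutting member known from pigment cell development, was scarce. It had 43, 30 and 46 counts in the CON samples and 19, 30 and 25 in the RA samples, which correspond to 0.242, 0.172 and 0.209 FPKM and to 0.111, 0.176 and 0.140 FPKM. RA 2 lay within the CON range. The log2 fold change was -0.56, but at this depth its 95% interval ran from -1.20 to 0.082, with an adjusted p of 0.270 by edgeR.

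Of the 3 procollagen N-propeptidases, none was a DEG and Adamts14 passed by adjusted p alone. Adamts14 (ENSRNOG00000000563) had 2.98, 3.71 and 3.74 FPKM in CON and 4.79, 4.56 and 4.61 in RA. All RA samples were above all CON samples. Its log2 fold change was 0.41 (SE 0.10, 95% interval 0.17 to 0.65) with an adjusted p of 0.0457 by edgeR, which stayed below 0.05 only without CON 1 or CON 3 among the 6 fits that left out a sample. With limma on log2(FPKM + 0.1) and log2(FPKM + 1) the adjusted p of Adamts14 was 0.0739 and 0.0698.

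Adamts2 (ENSRNOG00000061484), the main type I procollagen N-propeptidase, had 4.13, 4.22 and 4.69 FPKM in CON and 4.57, 4.51 and 5.06 in RA. CON 3 lay among the RA samples, and the log2 fold change was 0.10 (95% interval -0.092 to 0.30; adjusted p 0.501 by edgeR). Adamts3 (ENSRNOG00000027463) had 2.75, 2.65 and 2.74 FPKM in CON and 2.15, 2.56 and 2.67 in RA. RA 3 lay within the CON range, and the log2 fold change was -0.15 (95% interval -0.42 to 0.11; adjusted p 0.455 by edgeR). The intervals of both genes lie inside the fold threshold of 0.58.

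**Figure D3:**
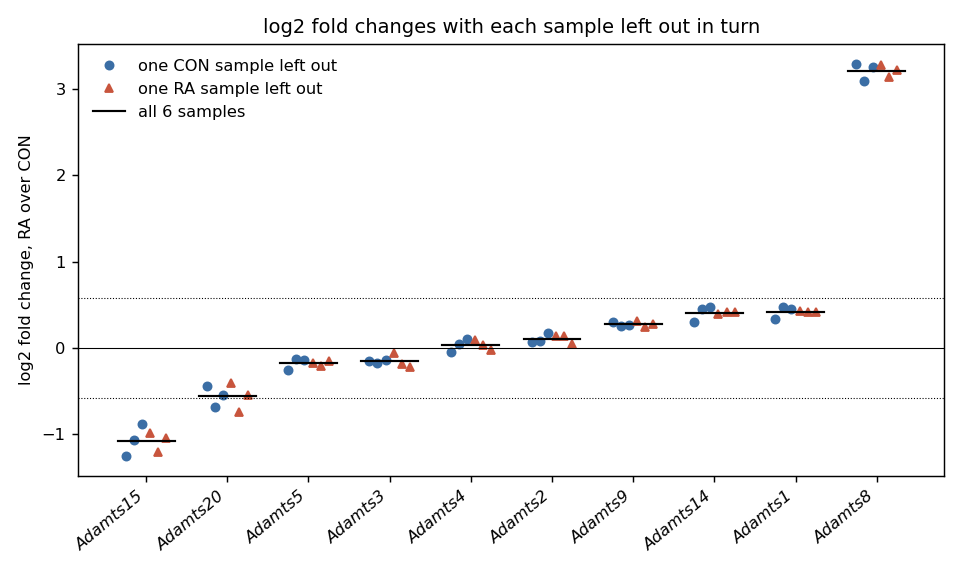
log2 fold changes of the 10 members when 1 sample was left out in turn (circle, a CON sample left out; triangle, an RA sample left out; line, all 6 samples; dotted lines, 0.58 in either direction). Adamts8 keeps to 3.10 to 3.29, Adamts15 spans -1.25 to -0.88 and Adamts4 crosses 0.

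Summed over the 7 hyalectanases, FPKM reached 50.0, 59.2 and 57.8 in CON and 64.4, 66.0 and 65.2 in RA. The sums did not overlap, and they were mostly Adamts1, whose share was 53.4 ± 0.863% in CON and 61.6 ± 0.866% in RA. The share of Adamts5 was 28.3 ± 0.236% in CON and 21.6 ± 0.610% in RA, and that of Adamts4 and Adamts5 together was 33.0 ± 0.196% and 25.7 ± 0.355%. The share of Adamts5 was smaller in every RA sample than in any CON sample. Despite the size of its fold change, Adamts8 made up 0.121 ± 0.0291% of the sum in CON and 0.9746 ± 0.0793% in RA. Adamts15 made up 3.35 ± 0.630% and 1.38 ± 0.185%. The 3 N-propeptidases summed to 9.85, 10.6 and 11.2 FPKM in CON and 11.5, 11.6 and 12.3 in RA, and the share of Adamts14 among them was 32.9 ± 2.47% and 39.4 ± 2.15%. These sums and shares were not tested.

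**Figure D4:**
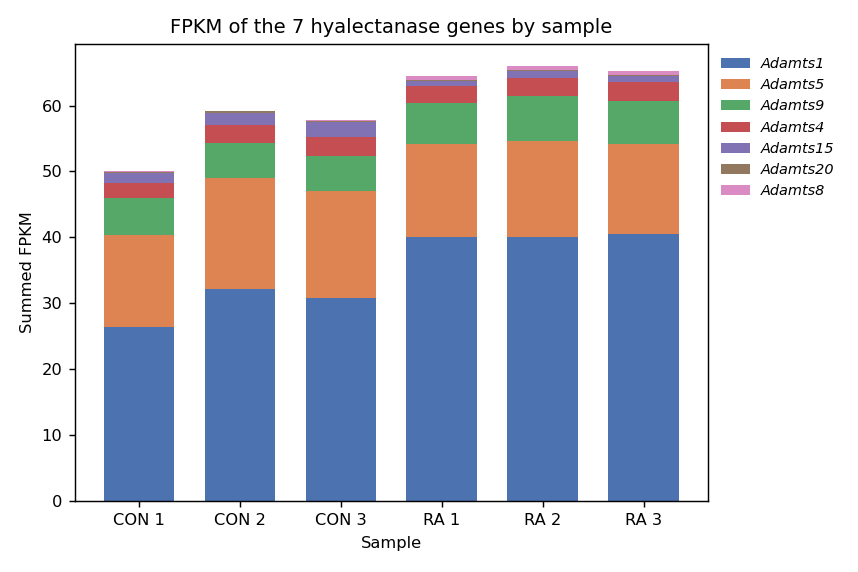
Summed FPKM of the 7 hyalectanase genes in each of the 6 samples, stacked by gene. The bars reach 50.0 to 59.2 FPKM in CON and 64.4 to 66.0 in RA, and Adamts1 fills the largest part of each.

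A further 9 ADAMTS protease genes lie outside these subfamilies, and 6 of them were tested. Adamts7, which cuts cartilage oligomeric matrix protein, rose from 1.98, 2.24 and 2.58 FPKM in CON to 3.47, 3.79 and 3.70 in RA (log2 fold change 0.67, SE 0.11, edgeR adjusted p 0.00732). The call held in 6 of 6 leave-one-out fits, but on log2(FPKM + 1) its log2 fold change was 0.51, short of the threshold. Adamts12, its closest relative, fell from 6.596, 6.197 and 6.171 FPKM to 3.37, 2.87 and 2.70 (log2 fold change -1.10, SE 0.088, edgeR adjusted p 1.82e-04). These 2 related genes thus changed in opposite directions, and neither had overlapping groups. Adamts6, Adamts17 and Adamts19 also had every RA sample below every CON sample, so that 1 of 6 lay above and 4 below, against 18.9% and 13.3% of all tested genes. The other 4 tested genes were not DEGs: Adamts6 had a log2 fold change of -0.57, Adamts10 of 0.038, Adamts17 of -0.55 and Adamts19 of -1.01. Adamts13, Adamts16 and Adamts18 had 7 counts or fewer in every sample. Of 16 tested ADAMTS protease genes, 4 were DEGs, 2 in each direction, 25.0% of them against 4.96% of all tested genes (2.67% higher and 2.29% lower). None of the 5 ADAMTS-like genes tested was a DEG.

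Acan, the aggrecan core protein, fell from 718 ± 71.0 FPKM to 254 ± 19.1, a log2 fold change of -1.51 (edgeR adjusted p 4.78e-05). Vcan (versican) had 25.1 ± 2.34 and 30.1 ± 1.39 FPKM and an adjusted p of 0.0828 by edgeR (0.042 by DESeq2), and the lecticans Ncan and Bcan were too low to be tested. Per 100 FPKM of Acan there were 7.79, 8.13 and 7.38 FPKM of hyalectanases in the CON samples and 27.7, 25.2 and 24.3 in the RA samples. Among 5 tested procollagen genes, Col2a1 was the 1 DEG, at -0.78 on the log2 scale (edgeR adjusted p 0.00457), while Col1a1 stood at 0.21 (0.301). The N-propeptidase sum per 1000 FPKM of Col2a1 was 1.97 ± 0.262 in CON and 3.72 ± 0.149 in RA, and per 1000 FPKM of Col1a1 it was 3.59 ± 0.432 and 3.40 ± 0.153. These ratios compare RNA levels and were not tested. Both Acan and Col2a1 also belong to the chondrocyte markers above.

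Of 7 genes for inhibitors and clearance, Timp3 was the 1 DEG. It fell from 367, 332 and 321 FPKM in the CON samples to 176, 187 and 184 in the RA samples, 53.2% of the CON level (log2 fold change -0.91, SE 0.065, edgeR adjusted p 1.04e-04). The groups did not overlap, and the call held in 6 of 6 leave-one-out fits. Hyalectanase FPKM per 100 FPKM of Timp3 was 16.5 ± 2.46 in CON and 35.8 ± 0.690 in RA. The hyalectanase sum itself was 55.6 ± 4.93 FPKM in CON and 65.2 ± 0.810 in RA. This ratio, like the one to Lrp1 below, compares RNA levels and was not tested. Timp2 and Reck, a membrane-anchored metalloproteinase inhibitor, were higher by adjusted p alone, with log2 fold changes of 0.24 (adjusted p 0.0246 by edgeR) and 0.40 (0.0032). With 1 sample left out, the adjusted p stayed below 0.05 in 6 of 6 fits for Reck but in 2 of 6 for Timp2, and it was 0.0665 to 0.153 in the other 4. Lrp1 had a log2 fold change of 0.45 (95% interval 0.17 to 0.72) and an adjusted p of 0.0553 by edgeR, which was 0.0308 without the filter on low counts and 0.00541 by DESeq2, and hyalectanase FPKM per 100 FPKM of Lrp1 was 43.6 ± 4.61 in CON and 36.7 ± 1.55 in RA.

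No DEG was found among the 6 activator genes or the 3 tested genes of other procollagen processing. Furin, the convertase that activates many ADAMTS precursors, stood at 0.11 on the log2 scale (edgeR adjusted p 0.646), Pcsk6 at -0.27 (0.0592, and 0.0283 by DESeq2) and Sdc4, a heparan sulphate proteoglycan linked to Adamts5 activity, at 0.16 (0.257). Bmp1, which removes the carboxy-terminal procollagen propeptide, stood at 0.011 (0.945). Together with the other ADAMTS and ADAMTS-like genes, 5 of 34 tested genes in these 7 lists were DEGs, 1 higher and 4 lower, beside the same 4.96% of all tested genes.

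**Figure D5:**
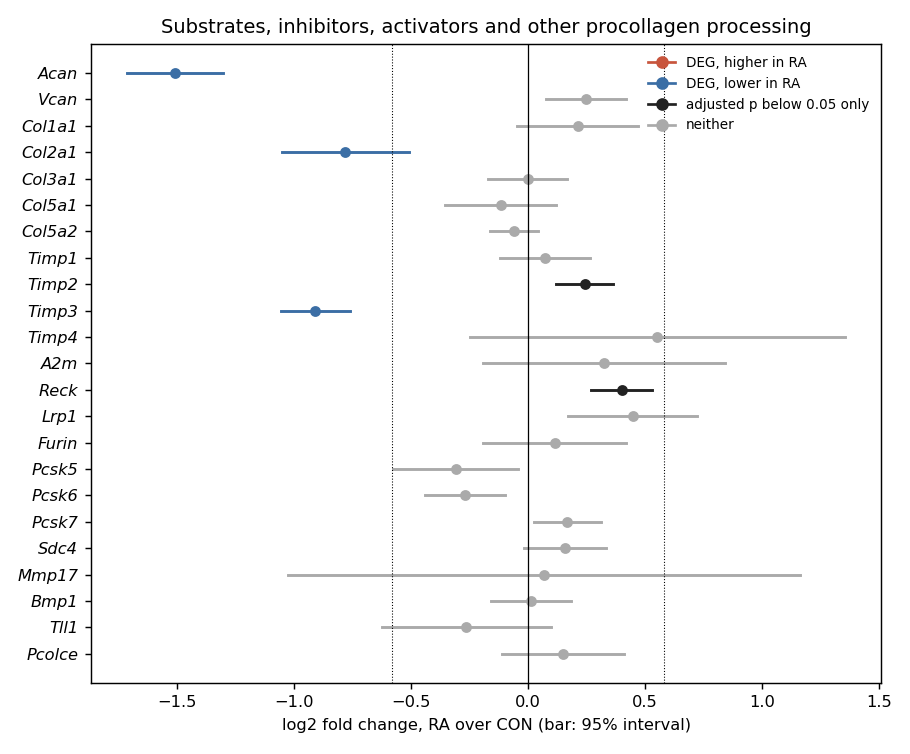
log2 fold changes of RA over CON for the tested substrate, inhibitor, activator and procollagen processing genes (point, estimate; bar, 95% interval; dotted lines, 0.58 in either direction). Acan at -1.51, Timp3 at -0.91 and Col2a1 at -0.78 are the 3 DEGs, all lower in RA.

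The genes whose pattern over the 6 samples was nearest to that of Adamts8, by the root mean square difference of centred log2 CPM over 13438 genes, were Il1rl1 (0.260), Hsd11b1 (0.298) and Cyp26b1 (0.333). Their log2 fold changes were 2.70, 2.57 and 2.65, each smaller than that of Adamts8. Nearest to Adamts15 were Cav3 (0.107), Myh14 (0.115) and Wscd2 (0.124), with log2 fold changes of -0.94, -0.90 and -0.97. The measure uses the difference between the groups, so genes with a like fold change come out nearest.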

How the data were processed

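RNA was sequenced on an Illumina HiSeq instrument from poly(A) libraries made with the NEBNext Ultra kit. The submitters' processing notes name HISAT2, HTSeq 0.13.5 and the Rnor_6.0 genome; the annotation, strand setting and treatment of multi-mapped reads are not given in the sources used here. For each of the 6 samples the authors deposited whole-number read counts per gene and FPKM values, and dividing one by the other gave the same gene length in every sample. Of 18923 genes, 473 had no count.

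Deposited counts were tested with edgeR 4.0.16 (quasi-likelihood, TMM, filterByExpr with a minimum count of 10, Benjamini-Hochberg adjustment over 13438 genes) in R 4.3.3, on all 6 samples without covariates. Standard errors were the log2 fold change divided by the square root of F. The code was tested on simulated counts. Levels and sums used the deposited FPKM values. Groups came from the sample labels. Alternatives were DESeq2 1.42.0, RLE size factors, limma 3.58.1 on log2(FPKM + 0.1) and log2(FPKM + 1), no filter on low counts, 1 FPKM in 3 samples, other call rules, a replicate block and leaving out each sample. Floors cover counting error only.

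The members and gene lists were chosen with earlier results of these data known, so no test over a list was made. Genes named were the 10 members, the DEGs of 7 lists of related genes, 10 partner genes fixed by name, 4 retinoid response genes and the 3 genes nearest in pattern to Adamts8 and Adamts15. Timp2, Reck, Ncan, Bcan, single marker genes of cell types and the ADAMTS genes that were not DEGs were named after their values were seen. Promoter windows and gene neighbours came from RefSeq tables of GRCr8, whose coordinates were not mixed with those of the files.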

Additional observations from a re-analysis of the deposited data

How the results depend on the processing

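Of 284 values of 22 named genes under alternative settings, 275 kept their direction and their status as DEG or not, 4 lost the DEG call and 5 changed sign. By adjusted p alone, 19 of the 284 rose above 0.05 (Adamts1, Adamts9, Adamts14 and Adamts15) and 12 dropped below it (Adamts5, Lrp1, Pcsk6 and Vcan). The count of 667 DEGs was 434 with limma on log2(FPKM + 1), 1319 by adjusted p alone and 1017 by unadjusted p with the fold threshold, and 480 to 755 with 1 sample left out. The count of 2 members called became 1 with a requirement of 1 FPKM in 3 samples, which removes Adamts8 and Adamts20 from the test, 5 by adjusted p alone, and 1 to 2 with 1 sample left out, where Adamts15 was lost without CON 2, RA 1 or RA 3. The 5 DEGs of the 7 related lists stayed at 5 with each sample left out. Signs changed only for genes near 0 with 1 sample left out: Adamts4 ranged from -0.047 (without CON 1; -0.025 without RA 3) to 0.10, Furin from -0.040 (without CON 1) to 0.22, and Bmp1 from -0.048 (without CON 1; -0.023 without RA 3) to 0.062. No scaling moved the median of all genes by more than 0.0154.

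Replicate numbers did not pair the samples: deviations of same-numbered samples from their group means correlated at -0.0119 to 0.0805, and not every sample correlated best with its own number. With the replicate block there were 684 DEGs and 2 members called, and the adjusted p of Lrp1, Vcan and Pcsk6 was 0.00545, 0.0322 and 0.0331. Rarb, at 0.0493, lost its call with the block (0.0526), with limma on log2(FPKM + 0.1) (0.0530) and, by fold, with limma on log2(FPKM + 1) (0.40). Depth limits Adamts8 in CON (5 to 8 counts) and Adamts20 (19 to 46 counts), and among ADAMTS proteases that were not DEGs the intervals of Adamts1, Adamts6, Adamts14, Adamts17, Adamts19 and Adamts20 reach beyond the fold threshold, as does that of Lrp1.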
